A study of Mus musculus with 11 samples.

Results

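The 10 genes described here are fibroblast growth factor (FGF) ligands of the forebrain and the genes that FGF signalling is known to regulate. They are the ligands Fgf8, Fgf17, Fgf18 and Fgf15, the feedback inhibitors Spry1, Spry2 and Dusp6, and the ETS transcription factors Etv1, Etv4 and Etv5. They were taken by gene symbol from the 20475 genes of each of 2 expression tables, and all 10 were present in both. The genes were chosen from results of these same libraries, so their differences between knockout and wild-type (WT) are given as a description and no test is attached to them.

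FGF ligands are secreted proteins that bind receptor tyrosine kinases together with heparan sulfate and act mainly through the RAS and ERK kinase cascade. In the early telencephalon, Fgf8, Fgf17 and Fgf18 are made at the anterior midline, a signalling centre that patterns the cortex along its anterior to posterior axis. ERK activity raises the expression of Etv1, Etv4 and Etv5 and of inhibitors of the same cascade, so the amounts of these transcripts are often read as a record of FGF signalling in a tissue.

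Poly(A) RNA was sequenced from E12.5 mouse embryos in 2 comparisons, each with its own controls. The germline comparison held 3 WT libraries and 3 libraries from germline Kif20a knockouts, which carry a knockout-first allele with a cassette of LacZ and a neomycin resistance gene. The inducible comparison held 2 libraries labelled wild type and 3 from conditional knockouts, Nestin-CreERT2; Kif20a fl/fl embryos. Tamoxifen was given to the mothers at E9.5 and E10.5, and as littermates were collected, the inducible controls shared it. Kif20a encodes a kinesin of the mitotic spindle and midbody. Embryos were littermates, both mutant alleles go back to 1 embryonic stem cell clone, and CreERT2 was driven by Nestin sequences, which are active in neural progenitors. Elsewhere in the study the inducible controls were Kif20a fl/fl, and the labels do not give the genotype of the 2 control libraries beyond wild type. The labels name the tissue forebrain and the cells neural, whereas the study's text names cortical cells. Nothing in the labels states how many embryos went into a library, so the spread between libraries may be partly technical.

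Values are normalized counts, which the authors equalized between the libraries of a table. Totals ran from 13048716 to 15551274 per germline library and from 24118520 to 24497307 per inducible library, and after this scaling they do not show sequencing depth. The tables were normalized separately, so no level was compared between them. Kif20a stood at 17.3% of the WT mean in the germline knockouts (log2 fold change -2.54, adjusted p = 0.00845) and at 61.7% in the inducible knockouts (log2 fold change -0.70, adjusted p = 0.0107; both by limma, Benjamini-Hochberg adjusted), and was lower in every knockout library. Values per gene do not tell full-length Kif20a transcript from reads of the disrupted allele.

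Germline knockout replicate 2 stood apart from the other libraries in its cell type markers. The summed level of 10 cranial mesenchyme genes was 581 normalized counts there against 4928 to 21883 in the other 5 germline libraries, that of 8 endothelial genes 636 against 1397 to 2876, and that of 6 microglial genes 15.8 against 383 to 583. Its sum over 10 genes of cortical identity was the highest, 49217 against 12271 to 27155. The summed level of 12 hypoxia and glycolysis genes was 59961 and 83628 in germline knockout replicates 1 and 2, against 18535 to 18723 in the WT libraries and 22495 in knockout replicate 3. Transcripts of 4 Y-linked genes summed to under 5 normalized counts in both inducible WT libraries and to 2389 to 3209 in the 3 knockout libraries, so in that comparison the knockout and Y-linked expression cannot be told apart. The germline sums were uneven as well, at 1714, 9.83 and 4582 in WT and 4.49, 0 and 1376 in knockouts, with both low knockouts being replicates 1 and 2. In bulk RNA, fewer cells of a type and less RNA per cell cannot be told apart either.

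Sequence just upstream of the start was read for the feedback inhibitors because their levels kept a close ratio to each other over the inducible libraries. The RefSeq set used here, on build GRCm38.p6, held promoters for 6 of the 10 genes: Fgf18, Spry1, Spry2, Dusp6, Etv1 and Etv5. The 250 bases before the start are shown 5′ to 3′ for Spry1 (chr3:37639697-37639946, plus strand), Spry2 (chr14:105896820-105897069, minus strand) and Dusp6 (chr10:99262981-99263230, plus strand). Capitals mark the letters CGGAA on either strand, 1 form of the short core bound by ETS factors.
Spry1: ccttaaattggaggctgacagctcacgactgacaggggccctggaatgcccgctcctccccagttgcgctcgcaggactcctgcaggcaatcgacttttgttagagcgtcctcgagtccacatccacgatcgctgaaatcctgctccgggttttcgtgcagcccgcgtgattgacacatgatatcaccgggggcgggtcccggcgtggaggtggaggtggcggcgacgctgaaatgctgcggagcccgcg
Spry2: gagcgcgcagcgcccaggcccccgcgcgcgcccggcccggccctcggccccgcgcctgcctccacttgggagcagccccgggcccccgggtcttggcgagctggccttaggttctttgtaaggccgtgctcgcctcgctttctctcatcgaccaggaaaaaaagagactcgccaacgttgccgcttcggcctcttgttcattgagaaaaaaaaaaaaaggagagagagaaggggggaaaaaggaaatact
Dusp6: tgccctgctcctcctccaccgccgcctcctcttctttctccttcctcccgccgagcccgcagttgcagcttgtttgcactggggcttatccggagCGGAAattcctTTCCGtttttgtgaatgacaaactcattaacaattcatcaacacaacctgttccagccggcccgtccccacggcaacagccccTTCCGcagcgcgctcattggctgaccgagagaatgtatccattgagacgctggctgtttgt
Dusp6 held 3 such matches, and the windows of Spry1 and Spry2 held 0. Forms of the core without the leading C were not searched, and the letters GGAA do occur in the Spry1 and Spry2 windows. Of 32851 mouse promoters of this length, 25.2% held at least 1 match. A longer ETS core, CCGGAA, an AP-1 motif, TGANTCA, and a CRE motif, TGACGTCA, were searched on both strands as well and had 0 matches in the windows of the 6 genes, against 12.0%, 6.75% and 1.55% of all promoters. The letters CGGAA lie within CCGGAA and were added after the longer core had no match. A match describes letters in a window and is not a measured binding site.

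Thresholds followed the study, a fold change of at least 1.5 with an unadjusted P of at most 0.05, on log2(normalized count + 1) in limma. In the germline comparison, 0 of the 10 genes passed both, where 2.74% of all genes tested did, and the knockout and WT values overlapped in all 10, where 13.5% of all genes tested had groups that did not overlap. Of the 10 inducible values, 1 passed, that of Fgf15, where 1.29% of all genes did. There, 4 of the 10 had groups that did not overlap (Fgf15 higher in every knockout library; Spry1, Spry2 and Dusp6 lower), where 22.6% of all genes did. These shares describe the choice of genes as well as the libraries, and nothing is read from them. The median log2 fold change of the 10 genes was -0.15 for the germline and -0.17 for the inducible libraries, beside -0.043 and -0.0019 over all genes tested. The errors differed between the comparisons: the median standard error of the 10 genes was 0.41 for germline and 0.12 for inducible values.

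**Figure D1:**
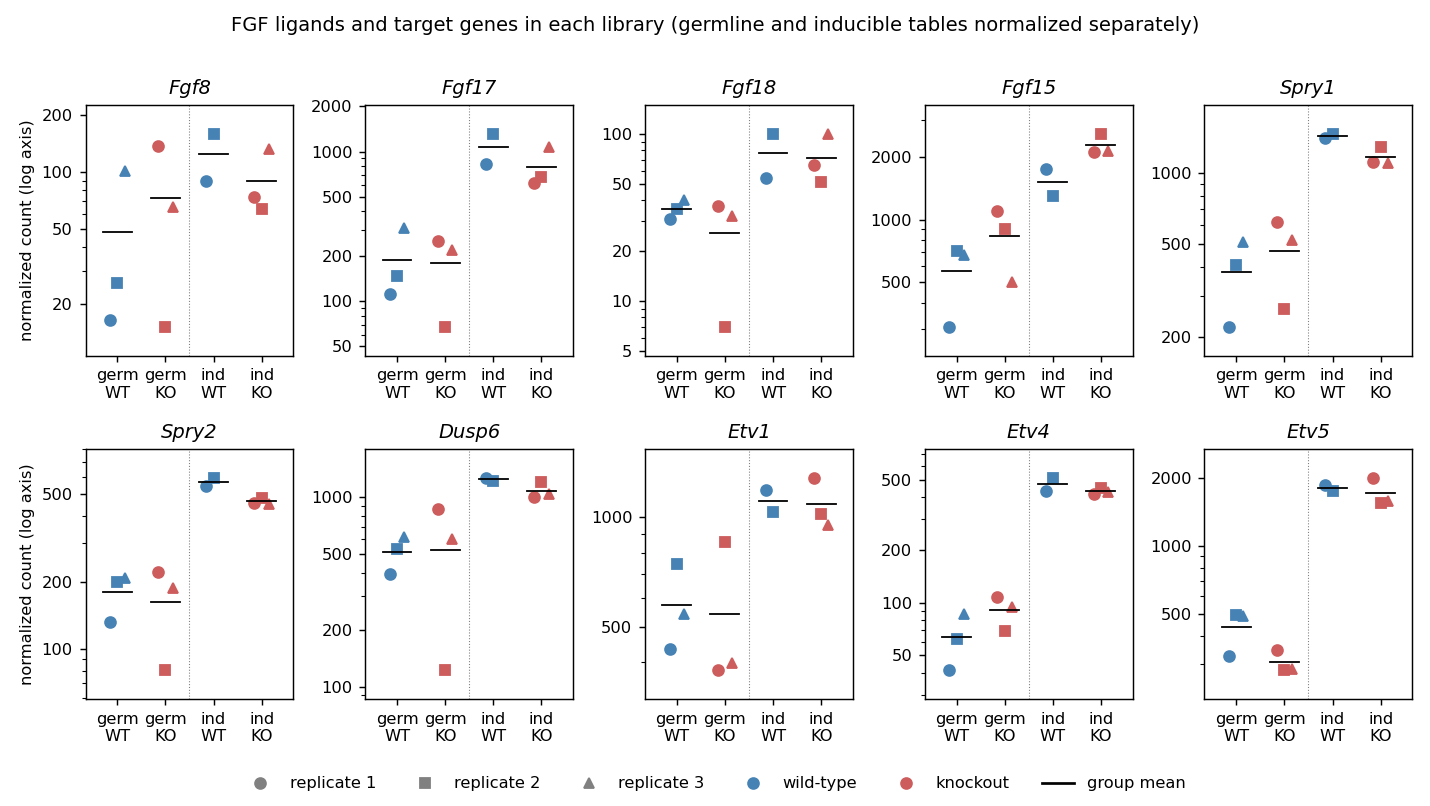
Normalized counts (log axis) of the 10 genes in each library, by group; circles, squares and triangles are replicates 1, 2 and 3, blue is WT, red is knockout, and black lines are group means. The germline (germ) and inducible (ind) libraries come from separately normalized tables; Fgf15 is above both WT libraries in all 3 inducible knockouts, and germline knockout replicate 2 is lowest for 6 genes.

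Fgf8, the organizing ligand of the anterior midline (chr19:45811288-45817405 on mm9), varied more between replicates than between genotypes. In germline WT it was 16.5, 25.8 and 102 normalized counts, and in germline knockouts 138, 15.1 and 65.3. Both groups therefore spanned nearly the same range, 6.17-fold in WT and 9.09-fold in knockouts, and the highest and the lowest library were both knockouts. The log2 fold change was 0.54 with a standard error (SE) of 0.93. It was -0.16 without knockout replicate 1 and 1.40 without knockout replicate 2, so the direction in the germline table rested on single libraries. In the inducible table Fgf8 was 89.5 and 159 in WT and 73.7, 64.1 and 133 in knockouts, a log2 fold change of -0.47 (SE 0.36). The third knockout lay between the 2 WT libraries and the other two lay below both. Without WT replicate 2 the difference was -0.06.

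Fgf17 (chr14:71036012-71042075), which acts in the same centre and is thought to refine its anterior output, followed Fgf8 closely from library to library. Its germline values were 113, 148 and 309 in WT and 252, 67.7 and 219 in knockouts, with a log2 fold change of -0.15 (SE 0.58). The difference was 0.44 without knockout replicate 2 and -0.50 without knockout replicate 1. In the inducible libraries Fgf17 was 829 and 1307 in WT against 617, 679 and 1066 in knockouts (log2 fold change -0.45, SE 0.26), again with knockout replicate 3 inside the WT range and the other two below it. It was -0.77 without WT replicate 1 and -0.12 without WT replicate 2. The ratio of Fgf17 to Fgf8 within a library lay between 8.02 and 10.6 in all 5 inducible libraries. It ranged more widely in the germline table, from 1.83 to 6.81, and the genotypes overlapped in both.

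Fgf18 (chr11:33017430-33047400), another midline ligand, was the third of this group. It was 31.0, 35.4 and 40.3 normalized counts in germline WT and 37.0, 7.01 and 32.2 in knockouts. Knockout replicate 2 lay far below the other 5, and the log2 fold change of -0.75 (SE 0.62) became -0.04 without it. Fgf18 was 54.1 and 99.7 in the inducible WT and 65.1, 51.2 and 99.2 in the knockouts, a difference of -0.09 (SE 0.35), and the groups covered nearly the same values. Without WT replicate 1 it was -0.52 and without WT replicate 2 it was 0.35. For all 3 midline ligands, inducible WT replicate 2 was highest, knockout replicate 3 was second, and the remaining libraries were lower.

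Fgf15 (chr7:152082437-152086858), the mouse counterpart of human FGF19 and a ligand made by progenitors of the diencephalon and telencephalon, was the ligand whose inducible groups stood apart. It measured 1743 and 1295 normalized counts in inducible WT and 2119, 2575 and 2143 in knockouts. Each knockout library was above both WT libraries. WT averaged 1519 ± 317 (SD, n = 2) and the knockouts 2279 ± 257 (SD, n = 3). On the log2 scale the difference was 0.59 (SE 0.14), or 1.51-fold, just past the fold threshold. It was 0.38 without WT replicate 2 and 0.81 without WT replicate 1. The fold threshold was missed without WT replicate 2 or without knockout replicate 2, and the count of genes past the thresholds then fell from 1 to 0. It was 2 without WT replicate 1 and 3 without knockout replicate 3. The count over all genes also changed with the library left out, and nothing is read from these counts.

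In the germline table the log2 fold change of Fgf15 was also 0.59, with an SE of 0.41 and overlapping groups. The WT libraries held 306, 711 and 677 normalized counts and the knockouts 1104, 906 and 502. The value ranged from 0.20 without WT replicate 1 to 0.92 without knockout replicate 3. Knockout replicates 1 and 2 were the highest of the 6, while knockout replicate 3 was below 2 of the 3 WT libraries. The highest of them, knockout replicate 1, also had the highest sum over 15 diencephalic genes, 8542 against 1824 to 3703 in the other libraries. In the inducible libraries that sum was 5757 and 5119 in WT and 4764, 5476 and 5142 in knockouts. The part of diencephalic tissue in the Fgf15 difference was not tested.

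Other features bear on the Fgf15 values. The first 930 bases of Fgf15 on mm9 overlap the noncoding gene Gm17685 on the opposite strand, and as no strand-specific counting is stated, reads from the overlap cannot be told apart. None of the other 9 genes overlapped an annotated gene in this annotation. In the inducible table, 106 of 20475 rows with values above 0 were given to at most 2 decimals and the other such rows to more. Fgf15 was the 1 gene of the 10 among these rows. Of these 106, 83 passed the thresholds here, so the number format went with the calls and the rows are not a random part of the table.

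Spry1 (chr3:37538869-37543520) encodes Sprouty1, an ERK-induced protein that blocks signalling between the receptor and RAS. In inducible WT it was 1403 and 1461 normalized counts, and in the knockouts 1114, 1283 and 1096. Every knockout was below both WT libraries. WT averaged 1432 ± 40.8 (SD, n = 2) and the knockouts 1164 ± 103 (SD, n = 3). The difference of -0.30 on the log2 scale (SE 0.08) was a modest one, 81.3% of the WT mean, and missed the fold threshold. It stayed between -0.37 and -0.26 when any 1 library was left out. The germline libraries gave 222, 408 and 507 in WT and 616, 265 and 519 in knockouts. Knockout replicates 1 and 3 were the highest of the 6 and replicate 2 was below 2 WT libraries (log2 fold change 0.29, SE 0.41, and -0.05 without WT replicate 1).

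Spry2 (chr14:106291166-106296036), its close relative and another Sprouty inhibitor, showed nearly the same inducible difference. It was 542 and 594 in inducible WT and 457, 483 and 451 in knockouts, again with no overlap (log2 fold change -0.29, SE 0.08, and 81.6% of the WT mean). The order of the 5 libraries was the same for both Sprouty genes. Their ratio, Spry1 over Spry2, was 2.43 to 2.66 over these libraries, the narrowest of the 6 ratios computed. The germline values of Spry2 were 133, 201 and 209 in WT and 222, 80.4 and 189 in knockouts, an overlapping spread with a log2 fold change of -0.24 (SE 0.41) that became 0.21 without knockout replicate 2.

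Dusp6 (chr10:98725865-98730122) encodes a cytoplasmic phosphatase that removes the activating phosphates from ERK. Its inducible values were 1270 and 1216 in WT and 1008, 1204 and 1038 in knockouts. The groups did not overlap, though knockout replicate 2 and WT replicate 2 were nearly equal, and the log2 fold change was -0.20 (SE 0.09). Within a library, the ratio of Dusp6 to Spry1 lay between 0.832 and 0.947. The germline spread was far wider: 394, 534 and 619 in WT and 862, 122 and 601 in knockouts. Knockout replicate 1 was the highest and knockout replicate 2 the lowest of the 6, a 7.07-fold range within 1 genotype. The log2 fold change of -0.35 (SE 0.68) became 0.50 without knockout replicate 2 and -0.90 without knockout replicate 1.

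**Figure D2:**
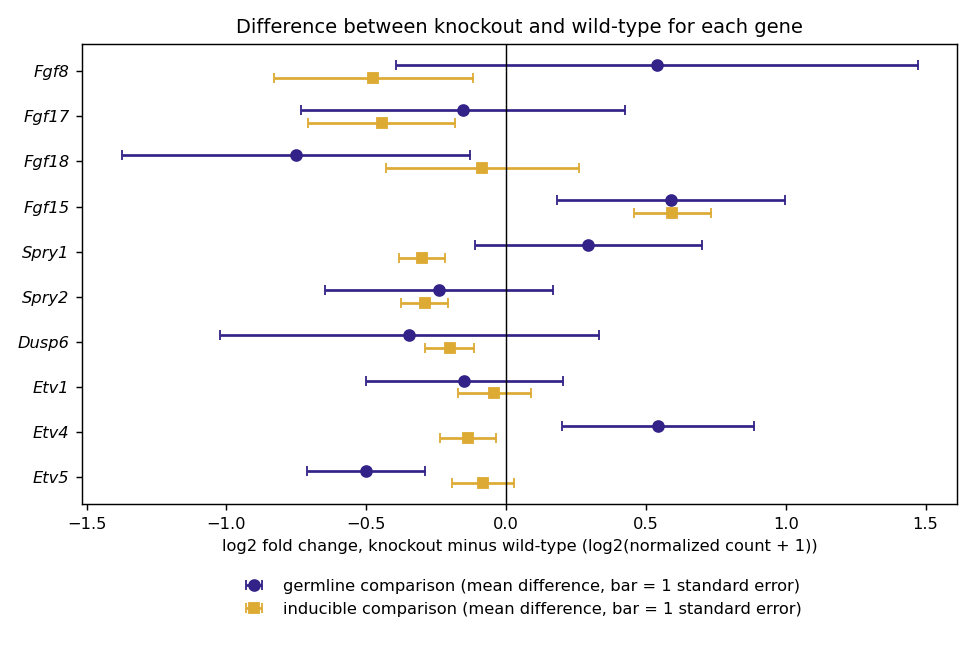
Log2 fold change, knockout minus WT, of each gene on the log2(normalized count + 1) scale; bars are 1 SE, circles are the germline and squares the inducible comparison. The inducible errors are the smaller ones, Fgf15 is at 0.59 in both, and the 9 other inducible values are below 0.

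The 3 ETS factors, transcriptional activators that ERK signalling induces and that carry out part of its output, differed less in the inducible comparison. Etv1 (chr12:39505967-39594802) was 1189 and 1034 in inducible WT and 1287, 1020 and 952 in knockouts (log2 fold change -0.04, SE 0.13). Etv5 (chr16:22381382-22439792) was 1859 and 1752 in WT and 2008, 1555 and 1585 in knockouts (-0.08, SE 0.11). For both genes knockout replicate 1 was the highest library and the other two knockouts were the lowest. Etv4 (chr11:101631056-101646685) was 432 and 513 in WT and 414, 447 and 425 in knockouts, where only knockout replicate 2 reached the WT range (-0.14, SE 0.10). The Etv4 difference was -0.26 without WT replicate 1 and -0.01 without WT replicate 2.

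The same 3 genes differed in sign in the germline libraries. Etv4 was 41.2, 62.3 and 86.4 normalized counts in WT and 107, 68.8 and 94.4 in knockouts, a log2 fold change of 0.54 (SE 0.34). Knockout replicates 1 and 3 were above every WT library and replicate 2 was above 2 of them, and the difference lay between 0.27 and 0.79 without any 1 library. Etv5 ran the other way, at 327, 494 and 491 in WT and 346, 281 and 286 in knockouts (-0.50, SE 0.21). Only knockout replicate 1 exceeded the lowest WT library. Etv5 passed the thresholds, as lower, when germline knockout replicate 1 or WT replicate 1 was left out, and the count of genes past the thresholds was then 1 in place of 0. Etv1 was 435, 744 and 543 in WT and 380, 855 and 397 in knockouts, with knockout replicate 2 the highest and the other two the lowest of the 6 (-0.15, SE 0.35).

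A ratio of 2 genes within a library does not depend on the scaling between libraries. The ratio of Etv4 to Etv5 was 0.126, 0.126 and 0.176 in the germline WT libraries and 0.310, 0.244 and 0.330 in the germline knockouts, so every knockout was above every WT library. In the inducible libraries it was 0.233 and 0.293 in WT and 0.206, 0.287 and 0.268 in knockouts, and the groups overlapped. Spry1 over Spry2 was likewise higher in each germline knockout, at 2.77, 3.30 and 2.75 against 1.67, 2.03 and 2.43, and did not separate the inducible groups. Fgf15 over Spry1 did the reverse. It was 1.90, 2.01 and 1.95 in the inducible knockouts against 1.24 and 0.887 in WT, and overlapped in the germline table. These were 3 separations among the 12 values of 6 ratios in 2 comparisons, chosen with the levels known, and they carry no test.

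**Figure D3:**
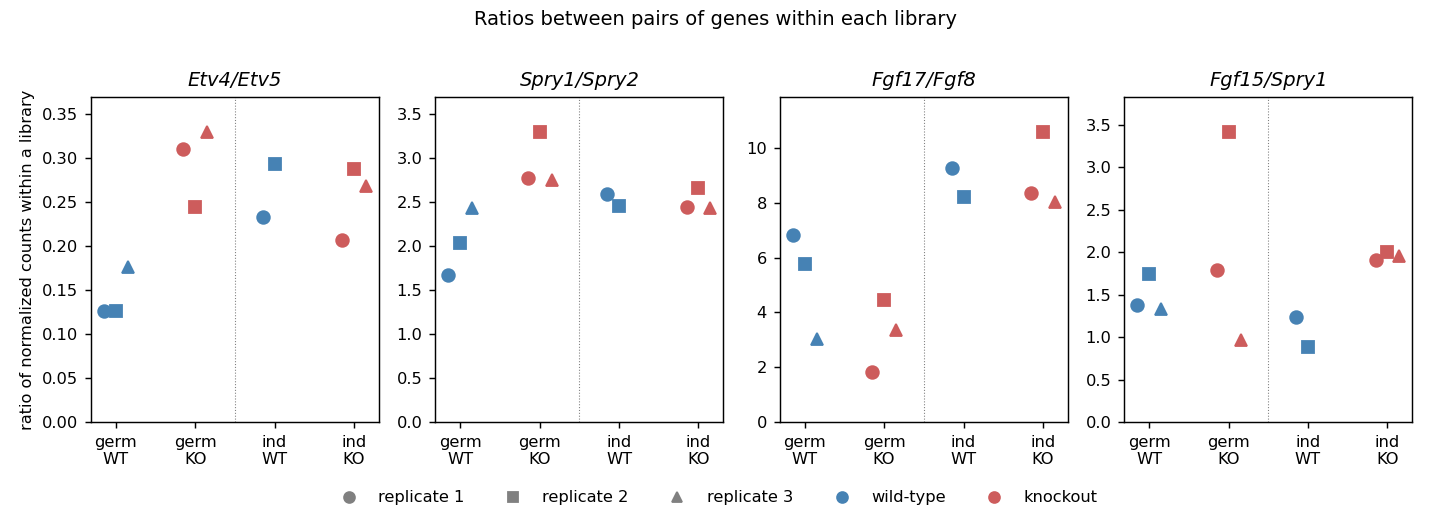
Ratios of normalized counts between pairs of genes within each library (linear axes from 0), by group; circles, squares and triangles are replicates 1, 2 and 3, blue is WT and red is knockout. Etv4/Etv5 and Spry1/Spry2 separate the germline (germ) groups, Fgf15/Spry1 separates the inducible (ind) groups, and Fgf17/Fgf8 separates neither.

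Library by library, the germline values varied together more than they followed genotype. Knockout replicate 1 was the highest library for 6 of the 10 genes (Fgf8, Fgf15, Spry1, Spry2, Dusp6 and Etv4). Knockout replicate 2 was the lowest for 6 (Fgf8, Fgf17, Fgf18, Spry2, Dusp6 and Etv5) and yet the highest for Etv1 and second for Fgf15. WT replicate 1 was below the WT mean for all 10. Against that mean, the median over the 10 genes was 0.65 on the log2 scale in knockout replicate 1, -0.87 in knockout replicate 2 and 0.17 in knockout replicate 3, and from -0.48 to 0.32 in the WT libraries. Fgf8 and Dusp6 placed the 6 libraries in the same order. Knockout replicates 1 and 2 were also the libraries with the high hypoxia and glycolysis sums given above, and replicate 2 the one with the low mesenchymal, endothelial and microglial sums. Their part in the levels of these genes was not tested.

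**Figure D4:**
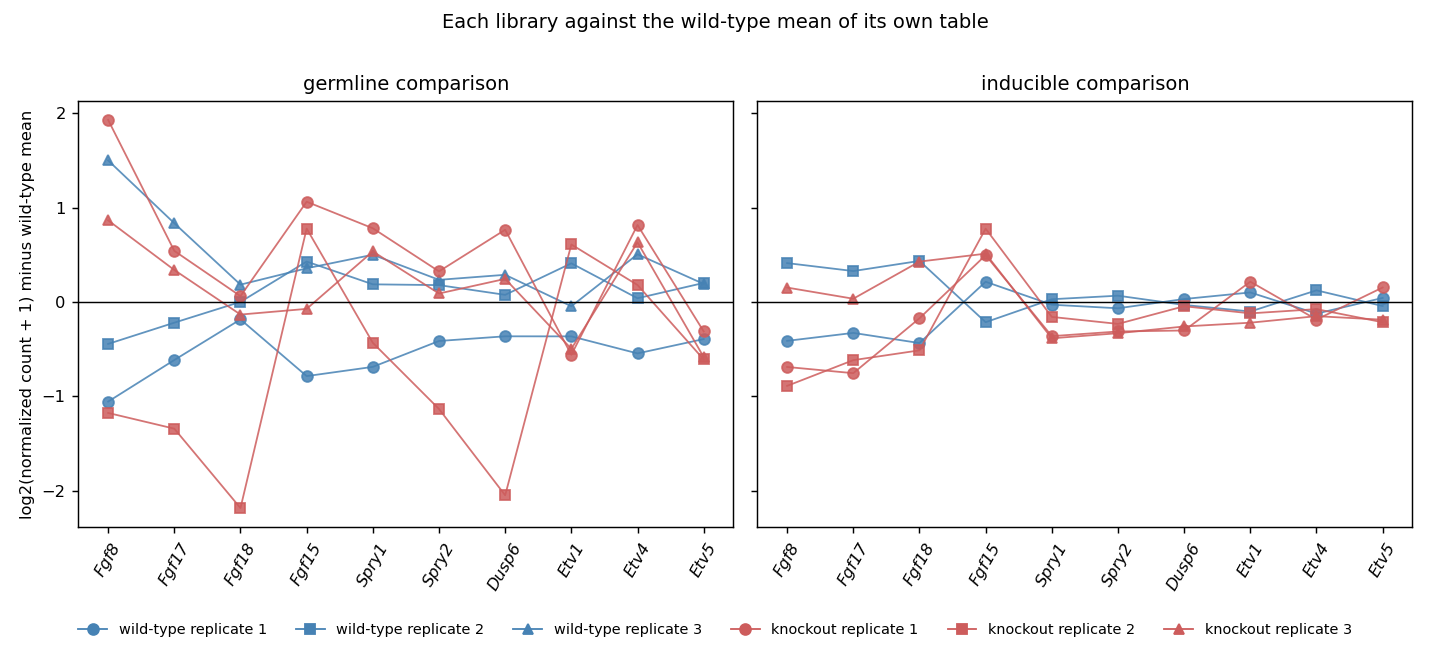
Log2(normalized count + 1) of each gene in each library minus the WT mean of the same table; lines join the genes of 1 library, blue is WT, red is knockout, and symbols are replicates. Germline knockout replicate 2 is low for the midline ligands, Spry2 and Dusp6 but not for Fgf15 or Etv1, and the inducible libraries lie closer together, apart from Fgf15 and the midline ligands.

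Per kilobase of annotated exon, Fgf15 was the most abundant of the 10 in every group, at 312 ± 124 (SD, n = 3) normalized counts per kb in germline WT and 840 ± 175 (SD, n = 2) in inducible WT. Fgf8, Fgf18 and Etv4 held the last 3 places in every group. In germline WT the means descended through Dusp6, Spry1, Fgf17, Etv5, Etv1 and Spry2 between these ends, and each gene overlapped the next in its range over libraries. The inducible WT order was Fgf15, Fgf17, Spry1, Dusp6, Etv5, Spry2, Etv1, Etv4, Fgf8 and Fgf18. There, 5 neighbouring pairs did not overlap, from Spry1 over Dusp6 to Etv4 over Fgf8, with Dusp6 and Etv5 alone overlapping between them.

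Beyond the 10 genes, 6 lists of the FGF pathway held 83 genes, of which 80 were in the tables and 64 germline and 65 inducible genes were abundant enough to test. In the germline comparison 4 of 64 passed the thresholds, all as higher, which is 6.25% beside 2.74% of all genes, and the unadjusted P was at most 0.05 for 5 of 64 (7.81%, beside 5.39% of all genes tested). No pathway gene (0 of 64) had an adjusted p under 0.05 by limma, Benjamini-Hochberg adjusted. The 4 were Sulf2, a sulfatase that trims heparan sulfate, the ERK-induced transcription factor Egr1, the immediate early gene Ier3, and Map2k1, which encodes the ERK kinase MEK1. The inducible comparison had 0 of 65 past the thresholds by limma, 5 of 65 at an unadjusted P of at most 0.05 (7.69%, beside 6.01% of all genes tested) and 0 after adjustment. The germline count depended on single libraries. It was 1 without knockout replicate 1, WT replicate 1 or WT replicate 2, 2 without WT replicate 3, 7 (5 of them lower) without knockout replicate 2 and 9 without knockout replicate 3. The inducible count was 1 without knockout replicate 1 and 2 without WT replicate 1.

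Sulf2 was 760, 1456 and 1579 normalized counts in germline WT and 2224, 2362 and 1873 in knockouts, higher in all 3 (log2 fold change 0.83, SE 0.28, adjusted p = 0.779 by limma, Benjamini-Hochberg adjusted). In the inducible comparison Sulf2 had the opposite sign, 5266 and 5357 in WT against 4454, 4477 and 4053 (-0.30, SE 0.06), and the difference between the comparisons was not tested. Egr1 was 31.0, 51.2 and 60.2 in germline WT and 74.2, 134 and 81.4 in knockouts (1.01, SE 0.36, adjusted p = 0.779 by limma, Benjamini-Hochberg adjusted). Both genes were thus higher in each germline knockout library, although neither passed after adjustment. Ier3 and Map2k1 differed in a subset of libraries. Ier3 was 16.4, 13.2 and 20.5 in WT and 414, 386 and 18.1 in knockouts (3.06, SE 1.14), and Map2k1 was 437, 561 and 527 against 1002, 820 and 542 (0.59, SE 0.24). The high values were those of knockout replicates 1 and 2, the libraries with the high hypoxia and glycolysis sums, and knockout replicate 3 was within the WT range for both. The part of the hypoxia genes' libraries in these differences was not tested.

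Of 18 tested feedback inhibitors and ERK response genes in the inducible comparison, 2 had an unadjusted P of at most 0.05, where 6.01% of all genes tested did, both with lower values in the knockouts. Il17rd encodes Sef, a membrane inhibitor of FGF signalling that is expressed with Fgf8 in the embryo. It was 2840 and 2993 normalized counts in WT and 2056, 2277 and 2049 in knockouts, a log2 fold change of -0.46 (SE 0.07, adjusted p = 0.134 by limma, Benjamini-Hochberg adjusted), which missed both the fold threshold and the adjusted one. It was lower in 3 of 3 knockouts and stayed between -0.51 and -0.42 without any 1 library. The other was Dusp9, an ERK phosphatase, at 123 and 149 against 109, 101 and 108 (-0.35, SE 0.15). Spry4, the third Sprouty gene measured, differed in sign from Spry1 and Spry2, at 197 and 154 in WT and 209, 197 and 210 in knockouts (0.24, SE 0.14). In the germline libraries Il17rd was 464, 820 and 1059 in WT and 1025, 347 and 857 in knockouts (-0.13, SE 0.46), with knockout replicate 2 again the lowest, and Spry4 was 44.2, 62.1 and 74.6 against 136, 30.6 and 72.3 (0.18, SE 0.54), with the highest and lowest values in the same 2 knockouts as for Dusp6.

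The receptors were measured at high levels and differed little. Of 4 tested receptor genes, 0 passed the thresholds in either comparison by limma, and Fgfr1 was the 1 of them whose unadjusted P reached 0.05 or less, among the inducible values. Fgfr1, the main receptor of early telencephalic progenitors, was 4903 and 5095 in inducible WT and 4791, 4464 and 4108 in knockouts (log2 fold change -0.17, SE 0.07, adjusted p = 0.825 by limma, Benjamini-Hochberg adjusted). Fgfr2 and Fgfr3 overlapped between the inducible groups, with differences of -0.06 (SE 0.11) and -0.01 (SE 0.19). In the germline table Fgfr3 was 2503, 2567 and 2637 in WT and 2531, 5659 and 2395 in knockouts. The value of knockout replicate 2 was more than that of any other library. The same library was the highest for Fgfr1, and for Fgfr2 by a narrow margin (1773 against 1739 in knockout replicate 1). The remaining tested receptor gene was lowest there, at 161 normalized counts. Knockout replicate 2 was high for Fgfr1 and Fgfr3 and low for the midline ligands, Spry2 and Dusp6. Fgfr4 was too low to test in both tables.

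**Figure D5:**
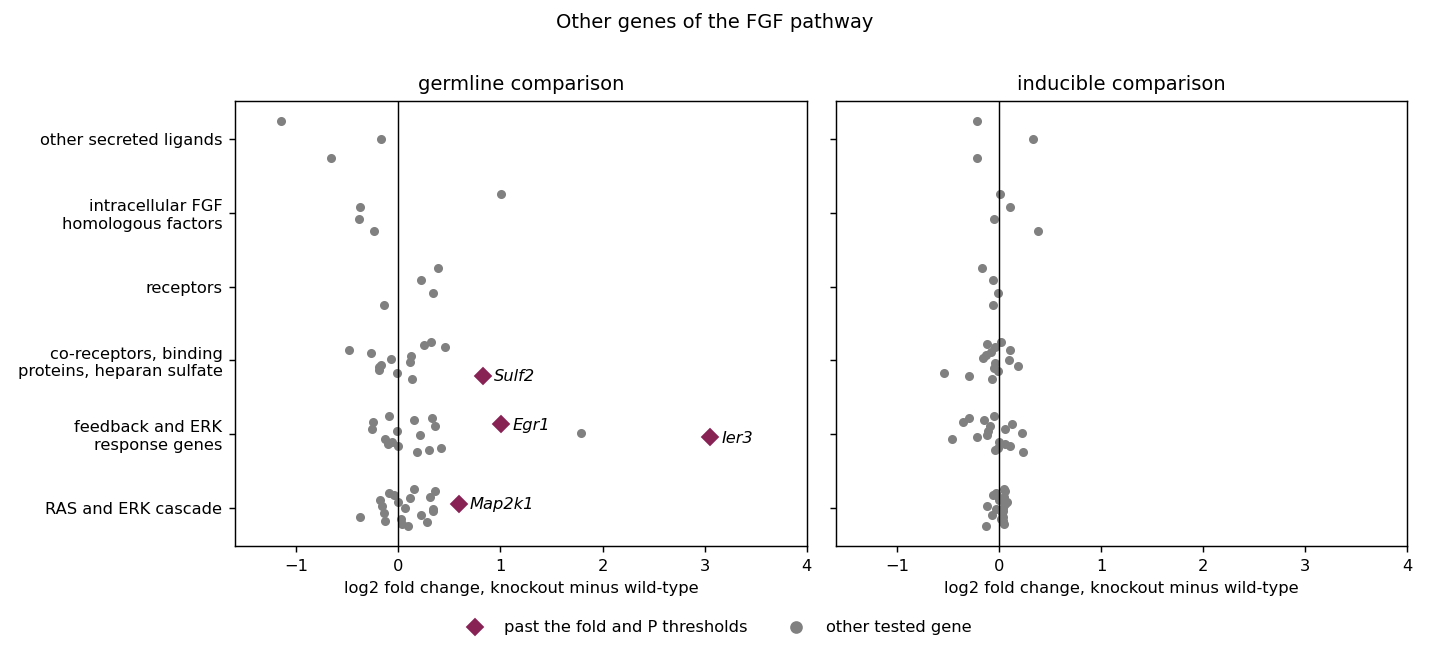
Log2 fold change, knockout minus WT, of every tested gene of 6 FGF pathway lists; diamonds mark genes past the fold and P thresholds and grey circles the other tested genes. The 4 germline diamonds are Sulf2, Egr1, Ier3 and Map2k1, and the inducible comparison has 0.

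Among the heparan sulfate genes of the inducible comparison, Sulf1 was 5607 and 6178 in WT and 4529, 4185 and 3471 in knockouts (-0.54, SE 0.11, adjusted p = 0.585 by limma, Benjamini-Hochberg adjusted). With Sulf2, both sulfatases were lower in each inducible knockout library. In the germline table Sulf1 was 1485, 2956 and 3316 in WT and 3137, 1510 and 3001 in knockouts, where the lowest library of each group lay near the other. Of the 3 other secreted ligands tested in each table (Fgf3, Fgf7 and Fgf9), 0 passed the thresholds by limma, and their unadjusted P was at most 0.05 in 0 cases. Fgf9 was 39.9, 52.0 and 27.3 in germline WT and 17.1, 33.5 and 24.1 in knockouts (-0.66, SE 0.40), and 60.2 and 32.3 against 31.0, 42.6 and 41.3 in the inducible table (-0.21, SE 0.31).

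Of the 11 tested genes of the anterior signalling centre and of cortical area identity, 0 passed the thresholds in either comparison by limma, and the unadjusted P was at most 0.05 for 0 germline and 2 inducible genes, beside 5.39% and 6.01% of all genes tested. The inducible ones were Sp8, a zinc finger factor of the anterior midline that acts with Fgf8, and Emx2, which opposes it from the posterior side. Sp8 was 1051 and 1210 in inducible WT and 1045, 803 and 857 in knockouts (-0.33, SE 0.12), and Emx2 was 3668 and 4536 against 3799, 3153 and 2708 (-0.35, SE 0.15; adjusted p = 0.825 for each by limma, Benjamini-Hochberg adjusted). Emx2 overlapped between the groups and Sp8 did not, by a narrow margin in knockout replicate 1. In the germline table their differences were 0.09 (SE 0.24) for Sp8 and 0.02 (SE 0.25) for Emx2. Shh, a ventral midline signal, was 281 and 31.2 in inducible WT and 60.6, 180 and 449 in knockouts. The summed level of 15 ventral telencephalic genes had the same order of libraries, 16142 and 8335 in WT and 9202, 11454 and 19274 in knockouts. For Fgf8, Fgf17 and Fgf18 the order was a different one, with WT replicate 2, the lowest library for Shh, the highest. The summed level of 9 midbrain and hindbrain genes was 112 and 220 in inducible WT and 102, 100 and 150 in knockouts. In the germline table it was 27.2, 35.3 and 90.5 in WT and 119, 25.9 and 79.3 in knockouts. Of these 9, 2 germline and 4 inducible genes were abundant enough to test. Among the 4 inducible genes, 1 passed the thresholds, as higher in the knockouts, where 1.29% of all genes tested passed. The median inducible log2 fold change of the list was -0.77, with 1 of the 4 above 0. Both sums ranked the libraries as Fgf8 did. The part of midbrain and hindbrain tissue in the midline ligand levels was not tested.

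Lists of neighbouring signalling tissue also held genes past the thresholds, which 1.29% of all inducible and 2.74% of all germline genes tested passed. In the list of cortical hem and choroid plexus, the posterior medial counterpart of the FGF centre, 3 of 12 tested genes were lower and 0 higher in the inducible comparison (Foxj1, Dkk3 and Rspo1), and the summed level was 13001 and 15670 in WT and 12117, 11040 and 6222 in knockouts. The germline comparison went the other way: 4 of 12 were higher (Rspo1, Rspo2, Rspo3 and Wnt8b) and 1 lower (Ttr). The median log2 fold change of the list was 0.58, against -0.58 in the inducible comparison. The difference between the comparisons was not tested. Both counts depended on single libraries. The inducible 3 became 1, Foxj1, without knockout replicate 3 or WT replicate 2, 5 without knockout replicate 2 or WT replicate 1, and 7 without knockout replicate 1, all lower. The germline 5 became 1, Rspo2, without WT replicate 1 or 2.

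In the diencephalon list 2 of 11 inducible genes were higher, Olig3 and Wnt3, and 0 of 13 germline genes passed by limma (unadjusted P at most 0.05 in 0 of them). The inducible count was 0 without knockout replicate 2, and Olig3 and Wnt3 no longer passed without knockout replicate 1 or WT replicate 2 either. The germline count was 7, all higher, without knockout replicate 2. All 12 hem genes had an inducible log2 fold change below 0, and 0 of them had an adjusted p under 0.05 by limma, Benjamini-Hochberg adjusted. The part of hem and diencephalic tissue in the lower Sprouty and Dusp6 levels was not tested.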

How the data were processed

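Poly(A) RNA from E12.5 Kif20a WT and knockout forebrain was sequenced in 11 libraries. Per the study's methods, the authors mapped the reads with TopHat to mm9 (1.2.0 in the submitters' processing notes, another version in the methods), summed each gene's reads over its RefSeq exons and scaled them in edgeR by trimmed means of M-values. What they deposited is a signal, a normalized count per gene and library, in 1 table per comparison. The methods also name scaling by gene length and a log2 step, which these values do not show: the most frequent low value, about 1 read, was within 0.2 normalized counts in genes under 1500 and over 4000 exon bases of every library. The table holds no whole reads, so no count model was fitted and depth is unknown. No per-sample column was left unmapped (0). Library groups and replicate numbers came from the labels.

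Fits used log2(normalized count + 1), limma 3.58.1 under R 4.3.3, a mean-variance trend and no block. Genes averaging at least 10 normalized counts entered (13938 germline and 14081 inducible). P values are two-sided; Benjamini-Hochberg adjustment covered all genes tested. The code was tested on simulated data. All 10 genes, Kif20a, pathway and anterior genes past the thresholds, Fgfr1 to Fgfr4, Spry4 and Il17rd were named by rule. Fgf3, Fgf7, Fgf9, Sulf1, Dusp9, Sp8, Emx2, Shh, Foxj1, Dkk3, Rspo1, Olig3 and Wnt3 were named after their values were seen. So were Rspo2, Rspo3, Wnt8b and Ttr. The 10 genes and the 18 gene lists were chosen with earlier results of these data known. Exact permutation tests could not go below p = 0.1 at these sizes and were not used. Gene positions came from GENCODE on NCBIM37 (mm9). Alternatives were other pseudocounts, filters and scalings, limma array weights, a replicate block, and leaving out each library.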

Additional observations from a re-analysis of the deposited data

Results flagged for a closer look

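In 4 of the named genes every germline knockout library lay on 1 side of its WT mean and every inducible knockout library on the other; none of these differences between the comparisons was tested. The ETS factor Etv4 had a log2 fold change of 0.54 (SE 0.34) in the germline and -0.14 (SE 0.10) in the inducible comparison. For the heparan sulfate sulfatase Sulf2 the differences were 0.83 and -0.30, and for the receptor Fgfr1 0.39 and -0.17. Rspo1, a Wnt agonist of the cortical hem, gave 0.80 and -0.84.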

How the results depend on the processing

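Etv5 was the 1 of the 10 genes past the thresholds, as lower, when germline knockout replicate 1 or WT replicate 1 was left out, and the germline count ran from 0 to 1 over the libraries left out. The inducible count ran from 0 to 3. Over the libraries left out, the count of other pathway genes ran from 1 to 9 (germline) and from 0 to 2 (inducible), and that of all genes from 157 to 1229 in place of 382 and from 126 to 322 in place of 182. Array weights gave 8 germline pathway genes (4 higher, 4 lower) and 1044 germline genes in all, 53.6% of them higher in place of 75.7%. In the inducible comparison a mean of at least 50 normalized counts gave 72 genes and no filter on low values 357; fewer or more genes were tested by construction. The replicate block gave 3 of the 10 inducible genes in place of 1 (Fgf15 higher, Fgf8 and Fgf17 lower) and 0 of the 10 germline genes, and Map2k1 (0.59) no longer passed. The share of all genes past the thresholds under the block is not given here, so nothing is read from these counts. Same-numbered libraries' deviations from their group means had r = -0.116, 0.306 and 0.247 (germline) and -0.352 and -0.0513 (inducible). No such value was computed for differently numbered libraries, so these cannot decide whether replicate numbers pair the libraries. In the inducible fit the block drops knockout replicate 3, which has no same-numbered WT library. The block's log2 fold changes equalled those without that replicate within 1e-06 in 14029 of 14029 genes. Inducible Dkk3 (-0.48) and Rspo1 (-0.52) missed the fold threshold under the block, and germline Rspo3 no longer passed. No other named gene, of those also fitted, changed its side of the thresholds under it. The sign was kept under every alternative by 4 of the 10 genes in the germline comparison (Fgf18, Fgf15, Etv4 and Etv5) and by 8 in the inducible one (not Fgf18 or Etv1). Array weights turned the germline sign of Fgf17, Spry2 and Dusp6. The causes were not tested. Sequencing depth is unknown, and 2 or 3 libraries per group limit every difference.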
